A study of Dendrobaena veneta with 18 samples.

Results

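The 300 longest well-expressed transcripts of Dendrobaena veneta, an earthworm, are described here in its cerebral ganglion and its gut. They are assembled genes, called features, and were chosen by measured values, namely counts and the length those counts imply. Of 243619 features in the deposited tables, 8682 had at least 100 counts in at least 12 of the 17 libraries, and the 300 longest of these were kept. The other 8382 features past the same count filter are the set they are compared with. Because no tissue has 12 libraries, a feature present in 1 tissue alone could not enter either set. A feature high in 1 tissue could still enter with only a few libraries of the other at 100 counts. The groups were cerebral ganglion of worms kept for 28 days in topsoil with 10 mg/kg carbamazepine (high dose, 3 libraries), with 0.6 mg/kg (low dose, 3) or with methanol-spiked soil alone (control, 3), and gut of worms of the same 3 soils (3, 3 and 2 libraries). Carbamazepine is a drug against epileptic seizures that acts on sodium channels of nerve cells, and the design asks how its 2 doses alter RNA levels in both tissues. The cerebral ganglion serves the worm as a brain. Adult worms were used, unfed during the exposure and held in the dark, and every library was made from poly(A)-selected RNA. The labels do not say whether replicates were separate animals or pools, so each p-value reflects the spread among these samples and no more.

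In animals, very long mRNAs encode, among others, the giant elastic proteins of muscle, cytoskeletal linker proteins, the heavy chains of motor proteins and large adhesion and matrix proteins. Both a nerve mass and a muscular, secreting gut make proteins of these kinds. In a fragmented poly(A) library a transcript yields reads in proportion to its length as well as its abundance, so a long feature reaches a given count at a lower number of molecules. The files pair no feature with a gene name, a sequence or a position. Features are therefore given by the identifier of the assembly without its prefix, no function is given to any of them, and the labelled tissues could not be checked against marker genes.

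Effective length, which is the number of bases per feature that the deposited counts and FPKM values imply together, ran from 6981.05 to 20395.7 bases in the long features, with a median of 8278. In the other features its median was 2111 bases. Of the long features, 72 exceeded 10000 bases and 9 exceeded 15000. The last feature inside the rule, DN96091_c1_g1, had 6981.05 bases and a mean of 37.3 CPM, and the first outside it, DN105296_c0_g1, had 6980.20 bases and 14.5 CPM. CPM values are counts scaled to the library total after TMM adjustment. The length of a long feature was nearly the same in every library, with a median ratio of highest to lowest of 1.005 and no ratio above 1.012. Whether a feature is 1 complete transcript was not tested.

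The long features came from 300 separate components of the assembly, and 117 of them (39.0%) were the sole feature of their component, against 20.2% of the others. Their mean level over all libraries had a median of 25.5 CPM (9.06 to 656), against 21.5 CPM in the others. Their median FPKM was 2.77, against 11.1 in the others, which the choice of long features at similar counts fixes in advance. At least 100 counts in all libraries, a measure the count filter itself used, were reached by 181 long features (60.3%) and by 53.3% of the others, and 1 long feature had 0 counts in 1 library, ganglion control 1. All 300 passed the low-count filter of the tests. The within-group SD of log2 CPM had a median of 0.47 in the ganglion, against 0.44 in the others, and of 0.24 in gut, against 0.29.

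Library totals lay between 12536754 and 18285270 counts. Gut low dose libraries 1 and 3 differed by little more than counting noise (mean chi-square 2.32 per feature, where noise alone gives about 1) and were counted as 1 sample. Gut high dose 1 and 3 were also close, at 17.6, but were kept as 2 samples, while the other pairs within a group lay between 34.3 and 132. By which features are present, on features that include no long one, the libraries matched as 9 worms, and 6 of these had both tissues. A matched worm is a group of libraries linked by a correlation of presence above 0.6. By this match, 1 animal cannot be told from a shared pool. Gut high dose 1 and 3 both matched the worm of ganglion high dose 2, so the 3 high dose gut libraries stand for 2 worms by this match. The p-values of tests on high dose gut thus treat libraries of 1 matched worm as separate samples, save where these are averaged. In ganglion control 3, low dose 3, high dose 1 and high dose 3, 48, 73, 68 and 50 of the long features fell under 100 counts, against 2 to 12 in the other 5 ganglion libraries and 1 to 24 in gut. These 4 libraries had 69375, 73745, 73170 and 81614 features with a count, and the other ganglion libraries 80161 to 87269.

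The long features stood lower in the ganglion than in gut, relative to the other features. For each library, every feature's log2 CPM was set against its mean over libraries, and the median of the others was subtracted from the median of the long features. This relative level was 0.017, -0.12 and -0.43 in control ganglia, -0.20, -0.072 and -0.50 in low dose ganglia and -0.37, 0.066 and -0.46 in high dose ganglia (log2, replicates 1 to 3). In gut it was 0.39 and 0.094 in controls (replicates 2 and 3), 0.39, 0.27 and 0.36 in low dose worms and 0.28, 0.19 and 0.037 in high dose worms. All ganglion libraries lay below all gut libraries except that ganglion high dose 2 lay above gut high dose 3, which matched as the same worm. In bulk samples, fewer cells of a type and less RNA per cell cannot be told apart.

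**Figure D1:**
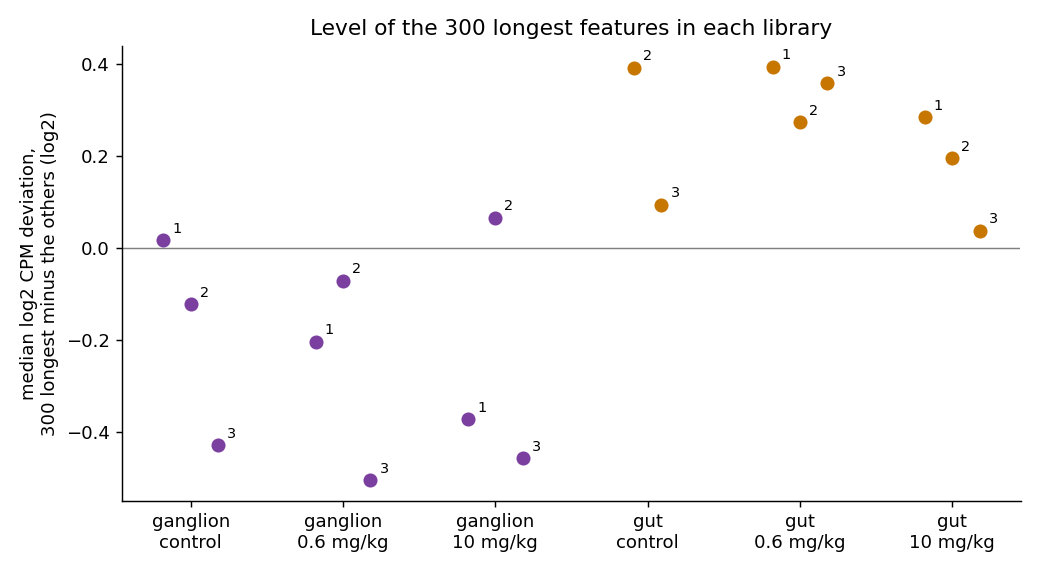
Relative level of the 300 long features in each library (median log2 CPM deviation of the long features minus that of the other features), by tissue and dose, with replicate numbers beside the points. Ganglion libraries (left) run from -0.50 to 0.066 and gut libraries from 0.037 to 0.39.

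By group, the relative level averaged -0.18 ± 0.23, -0.26 ± 0.22 and -0.25 ± 0.28 in control, low dose and high dose ganglia (SD, n = 3 each). The gut means were 0.24 ± 0.21 (n = 2), 0.32 ± 0.073 (n = 2) and 0.17 ± 0.12 (n = 3 libraries). Taking libraries 1 and 3 of high dose gut as 1 worm, the high dose gut mean was 0.18 ± 0.024 (n = 2). The gap between the tissues was larger than the pooled SD within groups of 0.21 at each dose, either way, while the doses of 1 tissue differed by less than that SD. That SD covers both tissues, and the ganglion groups had the wider spread. The low and high dose gut means differed by more than the SD of either of these 2 groups. Within the 6 matched worms, ganglion minus gut was -0.38 and -0.52 in controls, -0.58 and -0.34 in low dose worms and -0.57 and -0.095 in high dose worms, below 0 in each. The 4 ganglion libraries with the most long features under 100 counts had the 4 lowest relative levels. In these 4 libraries 10.3 to 15.9% of the other features also fell under 100 counts, against 2.33 to 7.43% in the other 5 ganglion libraries, and the part of this in the tissue difference was not tested.

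The share of counts ran nearly the same way. Of all counts on features past the filter, the long features held 1.19 to 1.99% in ganglion libraries and 1.97 to 3.24% in gut libraries. The tissues overlapped through ganglion control 1 and gut high dose 2. Without the 2 most abundant long features these ranges were 1.19 to 1.98% and 1.85 to 2.61%. Of all counts of a library they held 0.848 to 1.36% in the ganglion and 0.700 to 1.74% in gut, where the features past the filter took a smaller share of the library.

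In edgeR's quasi-likelihood test of ganglion over gut, 28 long features were higher and 29 lower in control worms, 15 higher and 43 lower in low dose worms, and 29 higher and 55 lower in high dose worms (adjusted p under 0.05). These are 9.33% and 9.67%, 5.0% and 14.3%, and 9.67% and 18.3% of the 300. Taking libraries 1 and 3 of high dose gut as 1 worm, 18 were higher and 27 lower in high dose worms. The share of the other features called in that fit, or with a library left out, is not given here. Leaving out 1 library there left 45 calls without ganglion library 1 and 38 without ganglion library 3, against 84. It left 42 without gut library 1 and 55 without gut library 3. In another case, not listed here, the calls rose above 84. Among all features tested, 9.74% were higher and 10.2% lower in control worms, 9.23% and 8.10% at the low dose and 13.5% and 11.6% at the high dose. Among the other features past the count filter, 13.7% were higher and 9.50% lower in control worms, 13.5% and 9.00% at the low dose and 15.0% and 12.5% at the high dose. With TMM scaling, and libraries 1 and 3 of high dose gut as 2 samples, fewer long features by share were thus higher in the ganglion than other features at every dose. The share lower was above that of the other features at both carbamazepine doses and close to it in controls. The order of the lower shares turned round under some other scalings and held under others. With RLE, 12.7%, 15.0% and 18.7% of the long features were lower in control, low dose and high dose worms. In the other features these shares were 10.9%, 9.66% and 12.9%. By DESeq2 the share lower was also above that of the others at every dose. With library totals only, 4.0% of the long features were lower in high dose worms, against 5.99% of the others, and 3.67% in controls, against 5.37%. In low dose worms the order held there, with 11.3% against 8.58%. By limma on log2(FPKM + 1) the lower shares were 2.67% against 5.52% in high dose worms, 8.0% against 8.20% in low dose worms and 2.33% against 4.22% in controls.

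The median log2 fold of the long features was -0.23 in control worms, -0.30 in low dose worms and -0.34 in high dose worms, against 0.17, 0.30 and 0.084 in the other features. The difference of the medians was -0.40, -0.60 and -0.42. By the sign of the fitted fold alone, 61.7%, 64.3% and 66.3% of the long features stood lower in the ganglion, against 43.4%, 39.7% and 46.7% of the others. By the fitted fold, 11, 6 and 7 long features were at least 4-fold higher in the ganglion (3.67%, 2.0% and 2.33%, against 6.61%, 4.46% and 4.83% of the others). At least 4-fold lower were 11, 12 and 11 (3.67%, 4.0% and 3.67%, against 4.82%, 3.76% and 4.46% of the others).

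Which direction held more calls also depended on the scaling. The difference of the medians stayed below 0 with TMM, RLE, library totals, DESeq2 and limma. A change of scaling shifts long and other features nearly alike, so it could hardly move this difference. With library totals only, the calls were 28 higher and 11 lower in control worms, 8 and 34 in low dose worms and 31 and 12 in high dose worms. The share of higher calls among all calls was then 71.8%, 19.0% and 72.1%, against 75.5%, 43.5% and 76.0% in the other features, and with TMM it was 49.1%, 25.9% and 34.5%, against 59.1%, 60.0% and 54.5%. That scaling moved the median of all features by 0.19, -0.17 and 0.22. By limma it was 74.1%, 11.1% and 75%, against 77.1%, 45.8% and 74.7%. DESeq2 called 33 higher and 58 lower in controls, 25 and 75 in low dose worms and 32 and 71 in high dose worms. These are 11% and 19.3%, 8.33% and 25%, and 10.7% and 23.7% of the 300, against 17.0% and 14.1%, 19.9% and 13.0%, and 18.2% and 16.5% of the others. Leaving out 1 gut control library, gut low dose 2 or the averaged pair leaves 1 sample in that group. Far fewer long features were then called in control and low dose worms. The share of the other features called in those fits is not given here, so the fall is not read as particular to long features.

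Across all 17 libraries, 51 long features (17.0%) had every ganglion library below every gut library, against 10.2% of the other features. The opposite order was seen for 19 (6.33%), against 12.6% of the others. Within the 6 matched worms, 108 long features (36.0%) were lower in the ganglion in every worm and 36 (12%) higher, against 21.9% and 27.7% of the others. The share of long features lower in the ganglion was 55.3% in the worm of ganglion high dose 2 and 63.3 to 70.3% in the other 5 worms.

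The median fold of ganglion over gut fell with length over the whole range in control worms. In worms given carbamazepine it fell with length except among the shortest features. The 8682 features were split by length into 10 classes of 868 or 869. The median log2 fold, ganglion over gut, in the shortest class (median 529 bases) was 0.52 in control worms, 0.51 in low dose worms and 0.25 in high dose worms. In the longest class (median 6412 bases) it was -0.21, -0.24 and -0.29. In control worms each class lay below the one before it. In low dose worms the order broke once, at class 2 with 0.62, and in high dose worms at class 2 with 0.33 and class 7 with 0.046 after 0.041. At both carbamazepine doses, classes 2 to 4 all lay above the shortest class. They had 0.62, 0.56 and 0.55 at the low dose and 0.33, 0.33 and 0.29 at the high dose. The 72 long features over 10000 bases had medians of -0.25, -0.39 and -0.47, and the 228 shorter ones -0.23, -0.30 and -0.32.

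**Figure D2:**
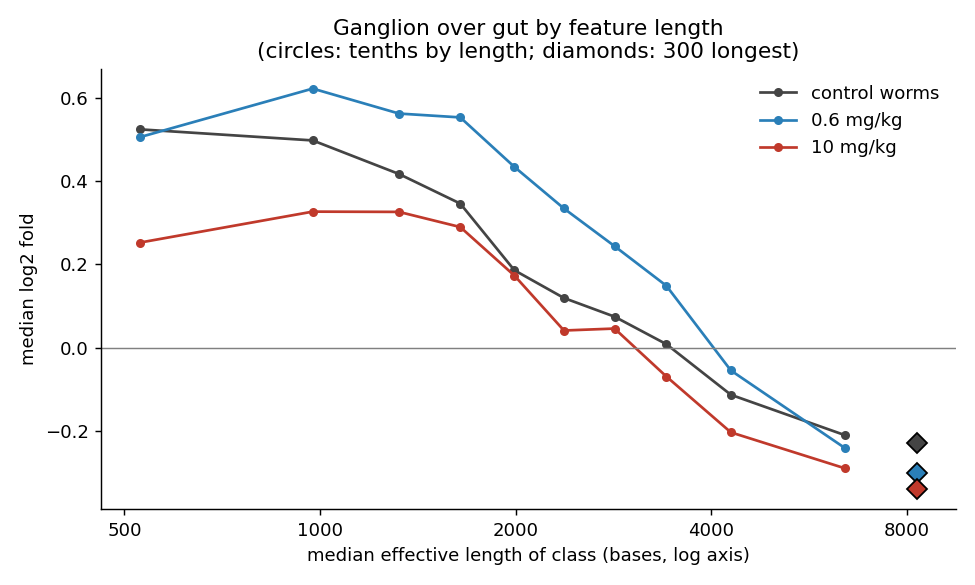
Median log2 fold of ganglion over gut against the median effective length of each of 10 length classes of the 8682 features (circles, log length axis), with the 300 long features as diamonds, for control, 0.6 and 10 mg/kg worms. The medians run from 0.52, 0.51 and 0.25 in the shortest class to -0.21, -0.24 and -0.29 in the longest.

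The difference was present at each level of expression. The 8682 features were split at mean levels of 16.3 and 30.7 CPM into 3 equal classes. The 72 long features of the lowest class had medians of -0.40, -0.78 and -0.56 in control, low dose and high dose worms, against 0.051, 0.18 and -0.035 in the others. The 113 of the middle class had medians of -0.25, -0.39 and -0.41, against 0.10, 0.25 and 0.012. The 115 long features of the highest class had medians of -0.028, -0.14 and -0.13, against 0.44, 0.52 and 0.29. The long features lay below the others in all 3 classes at every dose, and their own medians lay nearest 0 in the highest class.

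At all 3 doses, 10 long features (3.33%) were called higher in the ganglion and 9 (3.0%) lower, against 6.61% and 3.97% of the others. At 1 dose or more, 38 (12.7%) were called higher and 73 (24.3%) lower, against 22.4% and 17.2% of the others. None was called in both directions, and 189 (63.0%) were not called at any dose, against 60.5% of the others.

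**Figure D3:**
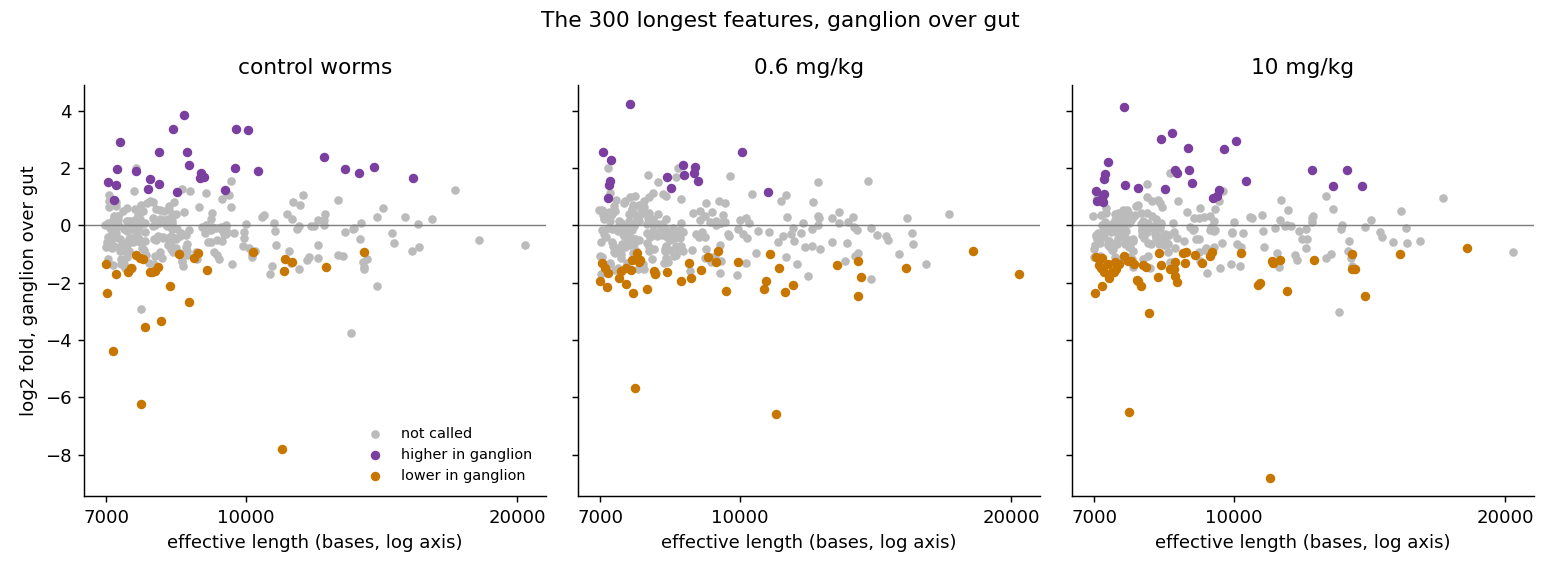
Log2 fold of ganglion over gut against effective length (log axis) for each of the 300 long features in control, 0.6 and 10 mg/kg worms, coloured where edgeR called them higher or lower in the ganglion. Most points lie between -2 and 2, with more below 0 than above it at each dose.

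DN107446_c3_g1, of 10063 bases, was the long feature with the smallest adjusted p on the ganglion side at every dose. It stood at 329, 223 and 281 CPM in control ganglia, 189, 194 and 274 in low dose ganglia and 272, 267 and 205 in high dose ganglia. In gut it stood at 32.4 and 24.9 CPM in controls, 41.4, 39.6 and 39.9 at the low dose and 27.3, 45.0 and 27.6 at the high dose. The tissues did not overlap, and the lowest ganglion library lay more than 4 times above the highest gut library. The log2 fold was 3.33 (SE 0.40, edgeR adjusted p = 0.000183) in control worms, 2.54 (SE 0.38, adjusted p = 0.00107) at the low dose and 2.93 (SE 0.33, adjusted p = 9.7e-05) at the high dose.

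DN106855_c2_g1, of 8292 bases, had the highest ganglion over gut ratio of medians, 2.95 on the log2 scale. It stood at 335, 238 and 119 CPM in control ganglia, 164, 91.5 and 120.1 in low dose ganglia and 237, 205 and 201 in high dose ganglia. Gut libraries lay between 21.6 and 52.6 CPM, so the tissues did not overlap. The log2 fold was 3.37 (SE 0.47), 1.70 (SE 0.43) and 3.02 (SE 0.39) in control, low dose and high dose worms, with edgeR adjusted p of 0.000435, 0.0185 and 0.000211.

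DN107485_c1_g1, of 7557 bases, was next by that ratio (2.91) but differed far more between ganglia of 1 group. It stood at 11.9, 118 and 13.7 CPM in control ganglia, 604, 271 and 237 in low dose ganglia and 9.05, 452 and 119 in high dose ganglia, against 7.02 to 22.4 CPM in gut. Of the 9 ganglia, 3 (control 1 and 3 and high dose 1) lay within the gut range. The ganglion was higher at the low dose (log2 fold 4.24, SE 1.37, edgeR adjusted p = 0.0486) and the high dose (4.12, SE 1.15, adjusted p = 0.0199), and the control difference missed the threshold (2.01, SE 1.22, adjusted p = 0.266).

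DN103291_c1_g2 and DN105824_c0_g1 were also called higher in the ganglion at all 3 doses. DN103291_c1_g2 averaged 67.6 ± 20.4, 71.8 ± 25.9 and 121 ± 23.0 CPM in control, low dose and high dose ganglia (SD, n = 3 each), and its gut libraries lay between 17.1 and 23.1 CPM. Its log2 fold was largest at the high dose, at 2.68 (SE 0.33, edgeR adjusted p = 0.000165). DN105824_c0_g1 lay between 41.3 and 85.0 CPM in ganglia and between 14.4 and 26.3 in gut, with a log2 fold of 1.53 at the low dose (SE 0.29, edgeR adjusted p = 0.00443). Without gut low dose 2 that adjusted p was 0.101, and with no low-count filter it was 0.0974.

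On the gut side, DN107426_c1_g1 (7646 bases) was the most abundant long feature and had the smallest adjusted p at every dose. In ganglia it stood at 20.8, 12.8 and 15.3 CPM in controls, 19.6, 15.9 and 27.6 at the low dose and 16.8, 23.3 and 19.7 at the high dose. In gut it reached 807 and 1779 CPM in controls, 587, 1710.2 and 572 at the low dose and 2459, 439 and 2625 at the high dose. Every gut library was at least 15 times above every ganglion library, and gut libraries of 1 group differed among themselves several fold. The log2 fold was -6.25 (SE 0.75, edgeR adjusted p = 0.000186), -5.68 (SE 0.73, adjusted p = 0.000409) and -6.50 (SE 0.74, adjusted p = 0.000103) in control, low dose and high dose worms.

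DN107542_c3_g1, of 10970 bases, had the lowest ganglion over gut ratio of medians, -8.01 on the log2 scale. It reached 100 counts in every gut library but, among ganglia, only in control 2 and at the low dose. It thus passed the count rule mainly through gut, where it was high, and its tissue fold is not independent of that rule. It stood at 5.58, 7.31 and 0.625 CPM in control ganglia, 18.7, 7.86 and 29.96 in low dose ganglia and 0.708, 4.60 and 1.65 in high dose ganglia. Gut libraries held 1317 and 706 CPM in controls, 1518, 2349 and 1526 at the low dose and 1352, 30.5 and 1745 at the high dose. Gut high dose 2 was thus more than 20-fold below every other gut library and lay just above the highest ganglion. The log2 fold was -7.80 (SE 1.44, edgeR adjusted p = 0.00246), -6.59 (SE 1.36, adjusted p = 0.0069) and -8.80 (SE 1.47, adjusted p = 0.00112).

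DN89817_c1_g1, of 8050 bases, was steady in gut, at 60.5 to 95.1 CPM over the 8 libraries. In ganglia it stood at 8.47, 7.74 and 6.46 CPM in controls, 23.0, 21.9 and 20.1 at the low dose and 3.07, 17.7 and 8.53 at the high dose. Low dose ganglia lay above all the others, and no ganglion reached the gut range. Ganglion over gut, its log2 fold was -3.34 (SE 0.49, edgeR adjusted p = 0.000619) in controls, -1.71 (SE 0.47, adjusted p = 0.0275) in low dose worms and -3.06 (SE 0.46, adjusted p = 0.000585) in high dose worms.

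The longest feature of all, DN107642_c2_g1 (20396 bases), stood at 58.5, 54.0 and 33.5 CPM in control ganglia, 27.5, 24.2 and 9.54 in low dose ganglia and 26.8, 37.8 and 27.9 in high dose ganglia. In gut it stood at 98.4 and 62.3 CPM in controls, 84.8, 57.2 and 82.5 at the low dose and 73.5, 73.2 and 32.7 at the high dose. The tissues overlapped, since gut high dose 3 lay within the ganglion range and ganglion control 1 lay just above gut low dose 2. It was lower in the ganglion at the low dose (log2 fold -1.71, SE 0.45, edgeR adjusted p = 0.0224), and the differences in control worms (-0.68, SE 0.45, adjusted p = 0.308) and at the high dose (-0.93, SE 0.41, adjusted p = 0.113) missed the threshold.

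The next longest, DN107503_c1_g2 (18142 bases), lay between 18.3 and 43.9 CPM in ganglia and between 37.9 and 54.7 in gut. It was lower in the ganglion at the low dose (log2 fold -0.90, SE 0.29, edgeR adjusted p = 0.0466) and the high dose (-0.78, SE 0.26, adjusted p = 0.0434), and missed the threshold in controls (-0.50, SE 0.29, adjusted p = 0.242). The third, DN107677_c3_g1 (17062 bases), ran the other way, with 26.7 to 147 CPM in ganglia and 37.8 to 90.6 in gut, and passed the threshold at no dose (edgeR adjusted p of 0.151, 0.662 and 0.173). DN105498_c0_g1, the third most abundant at 308 CPM over all libraries, held 162 to 499.8 CPM in ganglia and 269 to 397 in gut, and its tissue difference passed the threshold at no dose either.

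**Figure D4:**
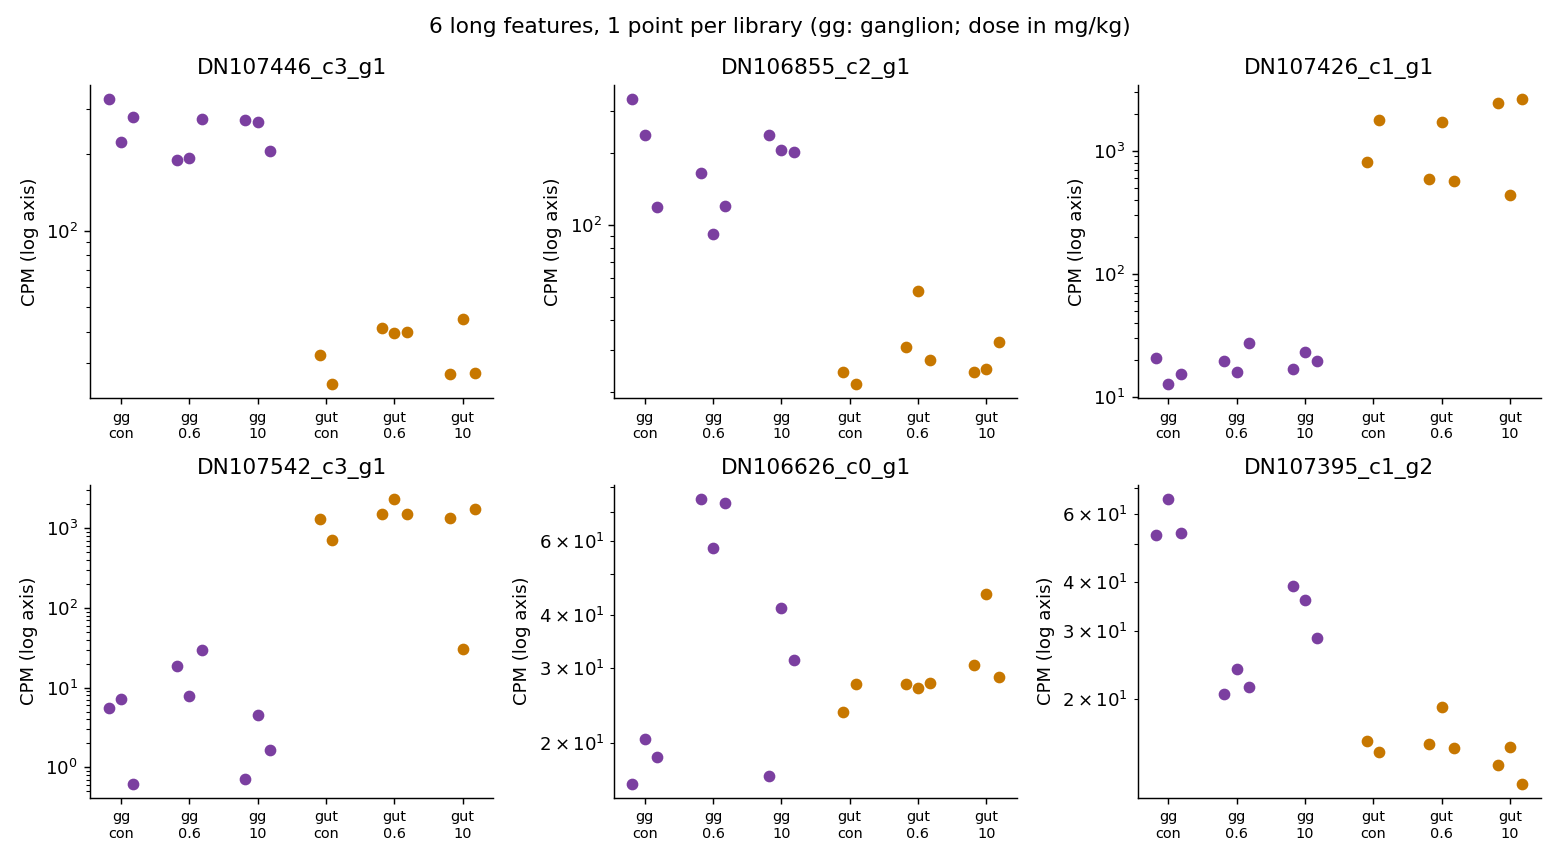
CPM (log axes) of 6 long features in each library, ganglion groups (gg) left of gut groups, with control (con), 0.6 and 10 mg/kg from left to right within a tissue. DN107446_c3_g1 and DN106855_c2_g1 stand higher in every ganglion than in every gut, DN107426_c1_g1 and DN107542_c3_g1 lower, and DN106626_c0_g1 and DN107395_c1_g2 have the smallest dose p in the ganglion.

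No long feature passed the threshold of edgeR's test in any comparison of doses in either tissue. DESeq2 called a few, and edgeR with no low-count filter called up to 15. The share of the other features called with no filter is not given here. Those calls are therefore not read as particular to long features. In gut, edgeR called 0 of the 300 at the low dose over control, 0 at the high dose over control and 0 at the high over the low dose, where it called 0.0240%, 0.00599% and 0.0220% of all features tested. At an unadjusted p under 0.05, 12, 11 and 12 long features passed (4.0%, 3.67% and 4.0%), against 7.88%, 7.75% and 9.24% of all features tested and 5.62%, 5.30% and 6.61% of the other features past the count filter. DESeq2 called 0, 1 (0.333%) and 0, against 0.167%, 0.215% and 0.382% of the other features past the count filter.

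In the ganglion, edgeR also called 0 of the 300 in each dose comparison, against 0.00208% of all features tested at the low dose over control, 0% at the high dose over control and 0% at the high over the low dose. At an unadjusted p under 0.05, 42, 9 and 13 long features passed (14%, 3.0% and 4.33%), against 16.7%, 3.70% and 10.8% of all features tested and 15.3%, 2.59% and 9.72% of the other features past the count filter. Of the 42 at the low dose, 19 were higher and 23 lower. DESeq2 called 4 (1.33%), 0 and 0, against 2.31%, 0.0239% and 0.215% of the other features past the count filter. The share of long features with a small p was thus near or under that of the other features in all of these comparisons but 1, the ganglion at the high dose over control, where it was 9 features.

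With TMM scaling, the medians of the long features lay between -0.14 and 0.058 in the dose comparisons. In the ganglion they were -0.080 at the low dose over control, -0.14 at the high dose over control and -0.073 at the high over the low dose, against 0.013, -0.076 and -0.10 in the other features. In gut they were 0.058, -0.052 and -0.081, against -0.017, 0.010 and 0.044. The gut medians moved with the scaling: for low dose over control and high over low dose they were 0.47 and -0.55 with library totals only, where the median of all features moved by 0.43 and -0.44, and 0.36 and -0.41 by limma. With TMM the difference of the medians was 0.13 log2 units or less in size, under the SD of 0.21 between libraries of 1 group. That SD covers both tissues and is wider than those of the low and high dose gut groups, 0.073 and 0.12. The comparisons within 1 tissue share groups, so their values are not independent of one another.

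**Figure D5:**
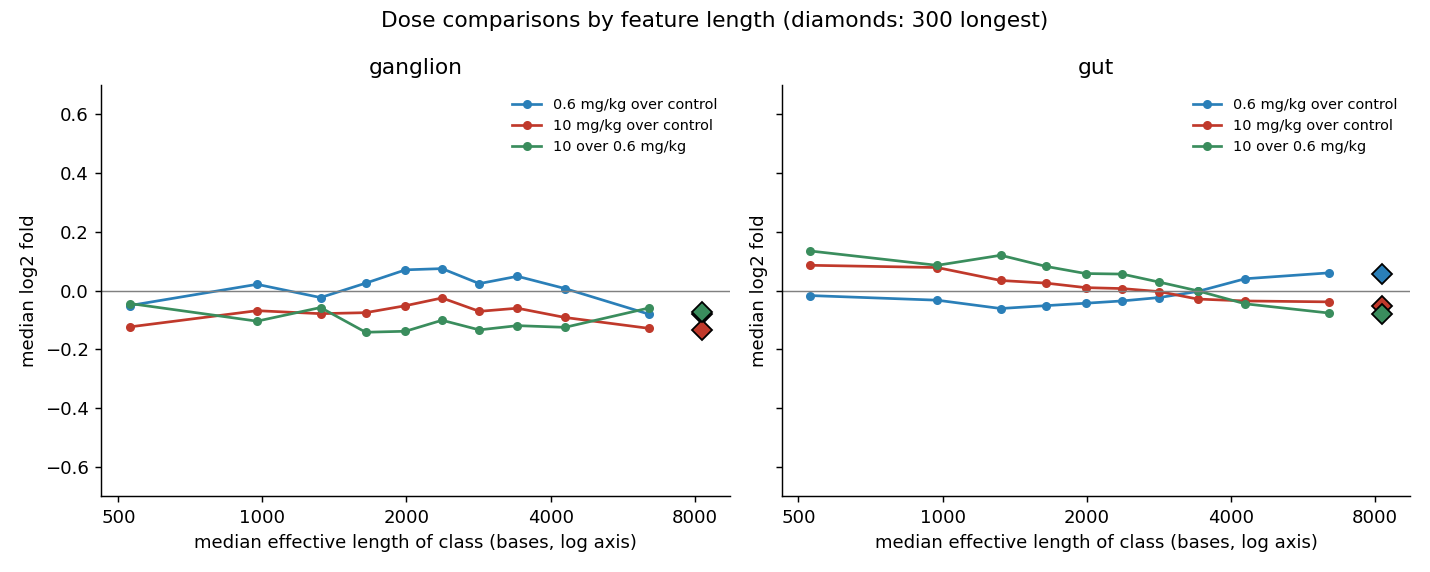
Median log2 fold of the 3 dose comparisons against median effective length (log axis) for 10 length classes of the 8682 features (circles) and the 300 long features (diamonds), in ganglion (left) and gut (right). All medians lie between -0.14 and 0.13, and in gut the high over low dose median is -0.076 in the longest class and 0.13 in the shortest.

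Folds of at least 2 either way were found for 51, 11 and 24 long features in the ganglion comparisons (17.0%, 3.67% and 8.0%), against 17.4%, 5.14% and 12.1% of the others. In gut they were found for 5, 3 and 1 (1.67%, 1.0% and 0.333%), against 4.96%, 3.65% and 4.09% of the others. Such folds were more frequent in the ganglion than in gut in both sets, and the spread between libraries was also wider in the ganglion.

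The long feature with the smallest p of the low dose ganglion comparison was DN106626_c0_g1, of 7163 bases. It stood at 75.2, 57.5 and 73.5 CPM in low dose ganglia, against 16.1, 20.4 and 18.5 in control ganglia, and high dose ganglia held 16.7, 41.5 and 31.4. Low dose ganglia lay above all the others, and high dose 1 lay within the control range. The log2 fold of low dose over control was 1.96 (SE 0.37, edgeR adjusted p = 0.144), and DESeq2 gave an adjusted p of 0.0157. High over low dose gave -1.30 (SE 0.36, edgeR adjusted p = 0.349). Gut libraries held 23.6 to 45.0 CPM at all doses.

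On the other side, DN107395_c1_g2, of 12892 bases, stood at 20.5, 24.0 and 21.5 CPM in low dose ganglia and 39.0, 35.9 and 28.7 in high dose ganglia, against 52.7, 65.5 and 53.4 in control ganglia. The 3 groups did not overlap, with low dose lowest and control highest, and gut lay between 12.1 and 19.1 CPM. The low dose fold was -1.32 on the log2 scale (SE 0.28, edgeR adjusted p = 0.144). In controls this feature was higher in the ganglion than in gut by 1.97 (SE 0.30, adjusted p = 0.000706), at the high dose by 1.38 (SE 0.25, adjusted p = 0.0019), and at the low dose the difference of 0.45 missed the threshold (SE 0.28, adjusted p = 0.268).

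At the high dose over control in the ganglion, the smallest p were those of DN103405_c0_g3 and DN107274_c1_g1. DN103405_c0_g3 stood at 1.97, 13.3 and 5.46 CPM in high dose ganglia, against 1.75, 2.32 and 0.139 in control ganglia, and at 18.9, 14.3 and 18.1 in low dose ganglia. Among ganglia it reached 100 counts only at the low dose and in high dose 2, and without these it would not have entered the set. The high dose and control ganglia overlapped, and the log2 fold was 2.29 (SE 0.88, edgeR adjusted p = 1). DN107274_c1_g1 stood at 17.9, 19.2 and 17.1 CPM in high dose ganglia, against 28.2, 44.4 and 73.5 in control ganglia, without overlap (log2 fold -1.50, SE 0.46, edgeR adjusted p = 1). For the high over the low dose, DN105470_c0_g1 stood at 68.2, 65.7 and 74.3 CPM in high dose ganglia, against 31.6, 27.6 and 15.7 in low dose ganglia, while control ganglia ran from 42.0 to 150.5 (log2 fold 1.40, SE 0.45, edgeR adjusted p = 0.363).

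In gut, DN99260_c0_g2 (9040 bases) had the smallest p of all gut dose comparisons. It stood at 50.6, 43.2 and 51.0 CPM in high dose gut, against 11.9 and 15.5 in control gut, and at 38.5, 17.2 and 37.8 in low dose gut. The 3 groups did not overlap. The log2 fold of high dose over control was 1.81 (SE 0.38, edgeR adjusted p = 0.391), and DESeq2 gave an adjusted p of 0.0377. Its ganglion libraries ran from 20.4 to 53.1 CPM with overlap between all doses.

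The other gut features with the smallest p in a direction had smaller folds. DN107059_c5_g1 stood at 30.5, 24.1 and 32.2 CPM in low dose gut, against 17.2 and 14.5 in control gut (log2 fold 0.82, SE 0.24, edgeR adjusted p = 0.57). DN93722_c2_g2 stood at 44.1, 30.7 and 38.7 CPM in low dose gut, against 64.0 and 64.1 in control gut (-0.81, SE 0.25, adjusted p = 0.579). Neither pair of groups overlapped, as was also so for DN105938_c1_g2, with 39.3, 39.0 and 31.3 CPM in high dose gut against 55.5 and 69.3 in control gut (-0.78, SE 0.25, edgeR adjusted p = 0.58). For the high over the low dose, DN96008_c0_g1 stood at 13.8, 13.7 and 13.7 CPM against 8.21, 8.20 and 9.15 (0.68, SE 0.21, edgeR adjusted p = 0.464), and DN103630_c1_g1 at 17.2, 18.3 and 12.3 CPM against 29.99, 36.5 and 27.5 (-1.05, SE 0.27, adjusted p = 0.405).

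Whether the dose effect differed between the tissues was tested with both tissues in 1 fit. EdgeR called 0 long features for the low dose effect in the ganglion minus that in gut and 0 for the high dose effect, against 0.00143% of all features tested in each. At an unadjusted p under 0.05, 24 and 4 passed (8.0% and 1.33%), against 8.01% and 2.32% of all features tested. DESeq2 called 7 (5 higher and 2 lower, 2.33% in all) and 0, against 3.28% and 0.0239% of the other features past the count filter. The largest fitted difference among the long features was that of DN103405_c0_g3 at the low dose, 4.297 on the log2 scale (SE 1.14, edgeR adjusted p = 0.351). Beside gut, this feature reached 100 counts only in the low dose ganglia and high dose 2, so the value is not independent of the count rule. The smallest p at the low dose was that of DN107395_c1_g2 (-1.53, SE 0.39, edgeR adjusted p = 0.334).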

How the data were processed

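Poly(A)-selected RNA from gut and cerebral ganglion was sequenced on an Illumina HiSeq X instrument and assembled de novo, per the labels' protocols and the series design. CASAVA and DESeq2 are named in the submitters' processing notes, without role or version. The sources used here name no counting program. The authors deposited a table of expected counts, an estimate per assembled gene and library, with no scaling between libraries. FPKM values, scaled by the authors to feature length and library size, were deposited as a second table. Of 18 labelled samples, 17 have a column, and replicate 1 of control gut is not analysed here.

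Effective length was count × 1000000000 / (FPKM × library total), as the median over libraries with at least 100 counts. Counts were rounded and tested with edgeR 4.0.16 (R 4.3.3), two-sided quasi-likelihood F tests with TMM scaling and the package's filter (minimum count 10, minimum total 15), 1 coefficient per group and Benjamini-Hochberg adjustment over all features kept. Gut doses were compared in a fit of 7 samples (50071 features, 4 residual degrees of freedom), ganglion doses in a fit of 9 (48132, 6), and the tissues and tissue-by-dose differences in a fit of 16 (69689, 10), with gut low dose 1 and 3 averaged. A feature was called at an adjusted p under 0.05. The SE is the log2 fold divided by the square root of F. Figures used matplotlib 3.10.9. The script was tested on simulated data.

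The alternatives were DESeq2 1.42.0, limma 3.58.1 on log2(FPKM + 1), other scalings and filters, other members, blocks, and each replicate left out. Named features are, per comparison, the 2 called members of smallest adjusted p in each direction, or, with none called, the 1 of smallest p in each direction. The 3 longest, the 3 most abundant, those on either side of the length threshold and the 2 with the most extreme ratio of medians per tissue were added. The members, the rule and the named features were chosen with earlier results of these data known. Counting error sets the precision of low counts. Averaged over features it was small beside the spread between libraries, save for gut low dose 1 and 3. Its part was not tested for named features with few counts in some ganglia. DN103826_c1_g1, for instance, had 9 and 1 counts in control ganglia 1 and 3. Replicate numbers were not taken as pairing the samples.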

Additional observations from a re-analysis of the deposited data

How the results depend on the processing

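The difference of the medians between the long and the other features was added after the data were seen. It was below 0 in all 55 alternatives of the tissue comparisons (-0.67 to -0.26) and between -0.21 and 0.19 in the 98 of the dose comparisons. Alternatives that change only the scaling shift all features nearly alike and could hardly move it. In a set chosen at a count minimum of 200, 189 features were also long features. The difference there was -0.29, -0.51 and -0.32 in control, low and high dose worms. The counts of calls moved far more. At the high dose, 43 long features were called between the tissues with library totals only, 48 with no low-count filter, 32 by limma on log2(FPKM + 1), 45 with gut high dose 1 and 3 averaged too, and 38 to 106 with 1 replicate left out, against 84. At the low dose, 35 were called with no filter, 100 by DESeq2, 27 by limma, 110 with the replicate block, 104 with gut low dose 1 and 3 separate, 34 with only the groups compared and 6 to 55 with 1 replicate left out, against 58. In control worms, 35 were called with no filter, 91 by DESeq2, 27 by limma, 33 with only the groups compared and 16 to 52 with 1 replicate left out, against 57. DESeq2 called all 84, 58 and 57 of edgeR's in the same direction. With matched worms as a block, 63, 45 and 64 were called in high dose, low dose and control worms, both directions together. Where the share of the other features called in a fit is not given above, its count is not read as particular to long features.

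Medians moved with the scaling. Between the tissues the median was -0.084 in high dose and -0.56 in low dose worms with library totals only, -0.072 and -0.040 in high dose worms and in controls by limma, and -0.14 and -0.034 in high dose worms and in controls with the count minimum of 200. In gut it was 0.47 for low dose over control and -0.55 for high over low dose with library totals only, where the median of all features moved by 0.43 and -0.44, and 0.36 and -0.41 by limma. In the dose comparisons, with no filter, 2 and 3 long features were called for gut low dose and gut high dose. In the ganglion, 15, 1 and 2 were called for low dose, high dose and high over low dose. For the low dose effect between tissues, 4 were called. The share of the other features called with no filter is not given here. DESeq2 called 1 for gut high dose, 4 for ganglion low dose and 7 for the low dose effect between tissues. The causes were not tested. Of 418 alternatives for named features, 409 left the call as it was, 3 lost it (all for DN105824_c0_g1), 6 gained it and 0 changed sign. Equal replicate numbers did not deviate together in every pair of any comparison (correlations across features -0.41 to 0.34), so the block was not taken as a pairing. It called 0 long features in all dose comparisons. The planned test of effective length between tissues was not run, since lengths varied by about 1% or less between libraries.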

Other observations

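A few long features are given for their order across ganglia and were chosen after their values were seen. DN97652_c2_g1 stood at 2.35, 4.56 and 0.417 CPM in control ganglia, 20.7, 38.2 and 20.2 in low dose ganglia and 1.57, 16.7 and 4.57 in high dose ganglia. DN103826_c1_g1 stood at 0.605, 5.79 and 0.0695 CPM in control ganglia, 32.1, 27.2 and 18.7 in low dose ganglia and 0.944, 16.4 and 4.72 in high dose ganglia. DN104240_c1_g1 stood at 2.75, 7.60 and 10.1 CPM in control ganglia, 29.9, 45.3 and 21.4 in low dose ganglia and 3.86, 27.6 and 8.08 in high dose ganglia. In each of them the 3 low dose ganglia lay above all control ganglia, and among the high dose ganglia replicate 2 was the highest and replicate 1 the lowest, as also in DN103405_c0_g3, DN89817_c1_g1, DN93722_c2_g2 and DN107485_c1_g1. This order was found for 17 of the 300 long features (5.67%), against 4.70% of the others, and low dose ganglia above all control ganglia for 29 (9.67%), against 12.1%. DESeq2 called the low dose over control for DN97652_c2_g1 (adjusted p = 0.0127), DN103405_c0_g3 (0.00558) and DN103826_c1_g1 (0.0482), and edgeR gave adjusted p of 0.163, 0.152 and 0.224. These features reached 100 counts only in gut, the low dose ganglia and high dose 2, just the 12 libraries that the rule requires. They thus entered the set through the ganglia where they stood high. Their order and these p-values are not independent of the rule. High dose 1 was among the ganglia with many long features under 100 counts, and high dose 2 had the fewest of all ganglia. The part of this in the pattern was not tested.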
